A study of Mus musculus with 6 samples.

Results

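Adipocyte progenitors are the stromal cells of fat that give rise to new adipocytes, and they are recognised and sorted by proteins on their surface. The 10 such surface markers described here are Pdgfra, Pdgfrb, Dpp4, Pi16, Ly6a, Cd34, Thy1, Icam1, F3 and Cd55. They were followed through every non-control probe that the scanner files name by 1 of these gene symbols, which gave 15 of 150305 probes, for 10 of the 21529 genes with a named probe. 6 of the genes had 1 such probe, Pdgfra, Thy1 and F3 had 2 each, and Dpp4 had 3. All 15 probes were well above background on all 6 arrays, none was saturated and none was flagged as an outlier.

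RNA was taken from abdominal adipose tissue of C57BL/6 mice, on 3 arrays of a DJB group and 3 arrays of a Sham group. DJB is a duodenal-jejunal bypass, made here with a biliopancreatic limb of 5 cm and a Roux limb of 4 cm, so that food does not pass through the upper small intestine. Sham mice had the same incision and the same cuts through the intestine, which was then sewn back in place. Mice of both groups had been on a high-fat diet since the age of 6 weeks and were randomised after 12 weeks of it, so that the Sham arrays too come from mice made diabetic by diet. Sex, the fat depot, the time from surgery to sampling and the number of mice per array are not given in the sources used here. The p-values therefore measure the spread between arrays, which may be technical.

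In mouse fat, the PDGF receptor Pdgfra marks fibroblast-like progenitors, and Ly6a, Cd34 and Thy1 are broad antigens used with it in sorting. Within these cells, Dpp4, Pi16 and Cd55 mark progenitors of the interstitial tissue around the fat lobules, Icam1 marks preadipocytes committed to the adipocyte fate, and F3 (CD142) marks a further stromal population. None of these proteins is restricted to progenitors: endothelium carries Cd34 and Icam1, mural cells carry Pdgfrb, T cells carry Thy1 and Dpp4, and epithelia carry Dpp4, F3 and Cd55. Whole tissue was measured, so fewer cells of a type and less RNA per cell cannot be told apart.

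The markers did not move as a block. Dpp4 was lower on every DJB array than on any Sham array, by 0.94 to 1.49 log2 units depending on the probe. Thy1 was higher by 0.55 to 1.0, with groups that overlapped on its dimmest probe. Both passed at the gene level, but each call was lost with the slide as a block and in most fits that left out 1 array. Ly6a and Icam1 were higher on every DJB array, by 0.37 to 0.49 and 0.43 to 0.54 log2 units depending on the probe, without passing the threshold. Cd55 was lower by 0.29 to 0.56, with groups that overlapped on the dimmer of its 2 probes, and did not pass either. Pdgfra, Pdgfrb, Pi16, Cd34 and F3 overlapped between the groups. Levels are given as log2 intensity relative to the 75th percentile of the array, which is 0, and differences as DJB minus Sham in log2 units with the standard error of limma's fit.

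The 75th percentile of intensity was 132.0 to 165.3 on the DJB arrays and 175.8 to 183.7 on the Sham arrays, and 62.6% to 64.9% of the non-control probes on the DJB arrays and 64.7% to 68.8% on the Sham arrays were well above background. The arrays lay on 2 slides, which were also the 2 scanning sessions: DJB-1, DJB-2, Sham-1 and Sham-3 on slide 1, DJB-3 and Sham-2 on slide 2. Sham-3 stood apart from the other Sham arrays. It correlated best with DJB-3 and lay nearest to the DJB arrays on the first principal component. Of 99423 probes tested, 5% passed an adjusted p of 0.05 (limma, Benjamini-Hochberg), 1.84% as higher and 3.16% as lower in DJB. Among 18446 genes, each represented by its brightest tested probe, 12.1% passed, 2.95% as higher and 9.1% as lower in DJB.

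**Figure D1:**
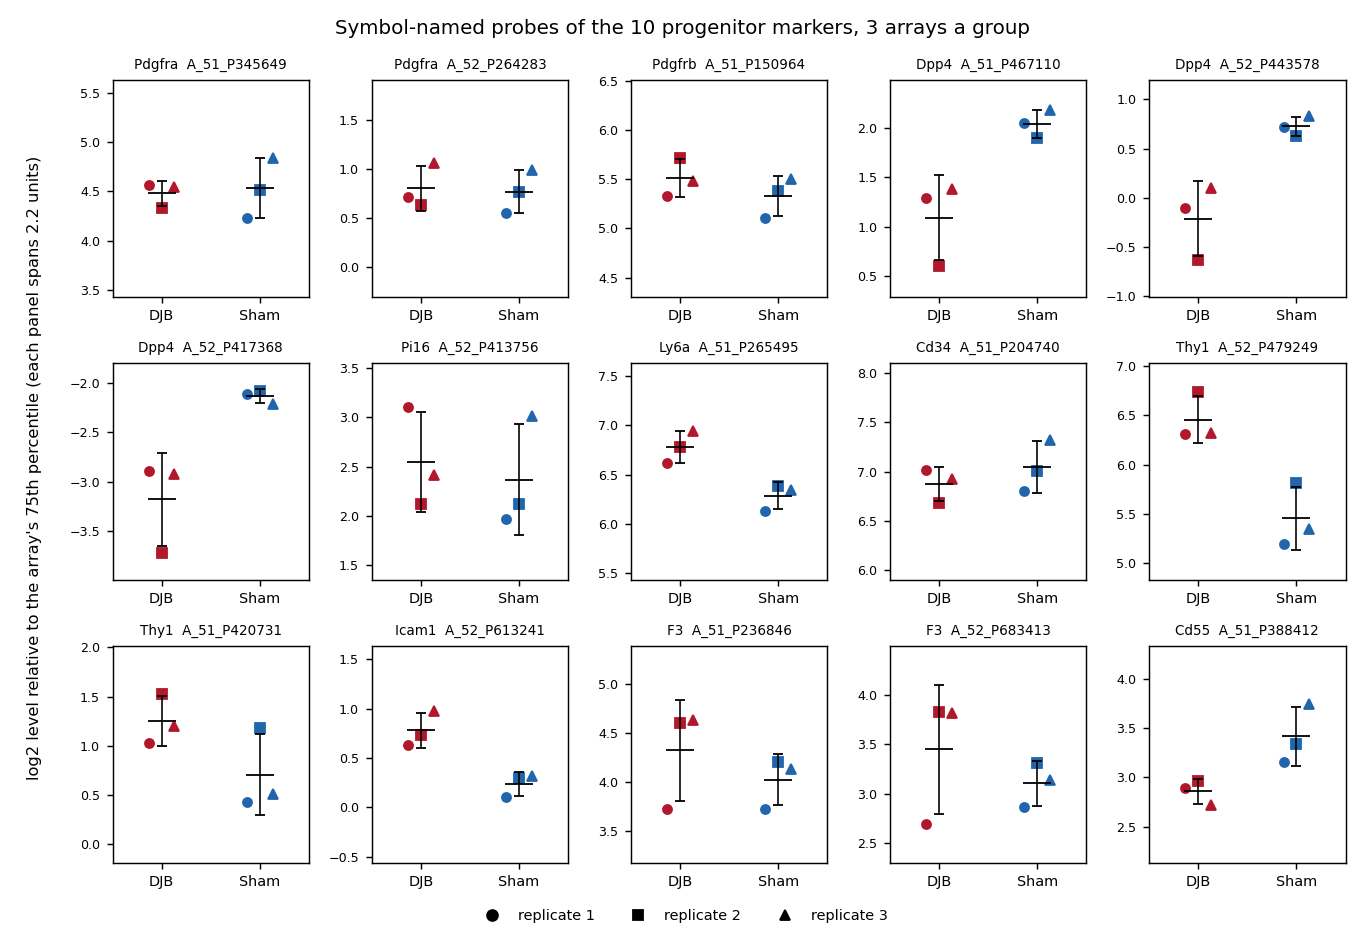
Level of each of the 15 symbol-named probes on each array, as log2 intensity relative to the 75th percentile of the array, with DJB left of Sham. Points are arrays, bars the mean and SD of 3 arrays, and every panel spans the same number of log2 units. The 3 Dpp4 probes and the Cd55 probe lie wholly lower on the DJB arrays, and the Ly6a probe, the Icam1 probe and the brighter Thy1 probe wholly higher.

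Of the 15 probes, 0 passed the adjusted threshold in limma, against 5% of all tested probes, and 7 had an unadjusted p under 0.05, against 28.2% of all tested probes. The same 7 had all DJB arrays on one side of all Sham arrays, against 36.1% of all tested probes. These were the 3 Dpp4 probes and the Cd55 probe on the lower side, and the Ly6a probe, the Icam1 probe and 1 of the 2 Thy1 probes on the higher side. With 3 arrays against 3, such a separation gives an exact two-sided permutation p of 0.1, the smallest this design allows. The difference was positive for 9 probes and negative for 6, with a median of 0.18 over the 15 and of 0.08 over all tested probes. At the gene level, with p adjusted over all 18446 genes, 2 of the 10 markers passed, Thy1 as higher and Dpp4 as lower, against 12.1% of all genes. The stand-in probes of 5 genes lay wholly on one side, those of Ly6a, Thy1 and Icam1 higher and those of Dpp4 and Cd55 lower, against 42% of all genes (19.8% higher and 22.2% lower).

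Pdgfra and Pdgfrb are the receptor tyrosine kinases for platelet-derived growth factors. The brighter Pdgfra probe, on mm9 chr5:75593888-75593947, stood at 4.57, 4.33 and 4.54 on DJB-1, DJB-2 and DJB-3, against 4.23, 4.51 and 4.84 on Sham-1, Sham-2 and Sham-3. The DJB values lay inside the Sham range, and the difference was -0.05 ± 0.18 (SE; limma adjusted p = 0.881), with a 95% interval of -0.49 to 0.39. The dimmer Pdgfra probe averaged 0.80 ± 0.23 on the DJB arrays and 0.77 ± 0.22 on the Sham arrays (SD, n = 3 each), and its 95% interval was -0.39 to 0.46. A further Pdgfra probe, named by its RefSeq accession, was brighter than both and differed by -0.16 ± 0.13 (SE; limma adjusted p = 0.436). With normexp background correction its difference was -0.28 (limma adjusted p over genes = 0.0834). Pdgfra, the marker that defines the whole progenitor compartment, thus overlapped between the groups on every probe. Pdgfrb, which pericytes and smooth muscle cells also carry, read 5.33, 5.71 and 5.48 on the DJB arrays, against 5.11, 5.38 and 5.51 on the Sham arrays. Its groups overlapped too, with a difference of 0.18 ± 0.16 (SE; limma adjusted p = 0.507). The accession-named Pdgfrb probe, which shares 49 bases with that probe, gave 0.23 ± 0.17 (SE; limma adjusted p = 0.41).

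Of the 4 PDGF ligand genes, which encode the growth factors these receptors bind, 0 passed as higher at the gene level. 1 passed as lower, against 9.1% of all genes. Pdgfd, a ligand of the beta receptor, read -0.56, -0.33 and -0.19 on the DJB arrays, against 0.17, 0.54 and 0.46 on the Sham arrays, and fell by 0.75 ± 0.16 on the log2 scale (SE; limma adjusted p over genes = 0.0337). Its call was lost with median scaling, with no filter on dim probes, with the replicate number as a block and with the mean of its probes. It was also lost without DJB-1, DJB-2, Sham-1, Sham-2 or Sham-3, and its limma adjusted p-values over all alternatives were 0.0135 to 0.108. The differences were -0.17 for Pdgfa and 0.23 for Pdgfc, neither of which passed. The median of the ligand list was -0.05, beside 0.004 over all genes.

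Dpp4 encodes a serine protease of the cell surface, also called CD26, that clips chemokines and peptide hormones. Its 3 symbol-named probes lie on the minus strand of mm9 chromosome 2. The dimmest, at chr2:62192636-62194702, covers 2067 genomic bases with its 60 bases and so crosses an exon junction. The other 2 overlap by 20 bases at the 3′ end of the gene. The sequences below, from the deposited files, show why the first reads a separate stretch of the transcript while the others are not independent of each other. Capitals mark the shared bases, and the last line holds bases 1 to 30 of a further probe, which the files name by its RefSeq accession instead of the symbol and which shares no run of more than 7 bases with the others.
A_52_P417368: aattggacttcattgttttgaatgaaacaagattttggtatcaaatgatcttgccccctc
A_52_P443578 (bases 31 to 60): atcatatatgCAAAGCACTGACTTCTAAGT
A_51_P467110 (bases 1 to 30): CAAAGCACTGACTTCTAAGTaaaaccacag
accession-named Dpp4 probe: gctcttgctctaagttggagtgagaatgcc

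The brightest symbol-named Dpp4 probe read 1.29, 0.59 and 1.38 on DJB-1, DJB-2 and DJB-3, against 2.05, 1.90 and 2.18 on the Sham arrays. The lowest Sham array stood 0.52 log2 units above the highest DJB array. The difference was -0.95 ± 0.23 (SE), a level in DJB of 0.516 of that in Sham, with a limma adjusted p of 0.0664 over all probes and of 0.048 over genes, where this probe stands for Dpp4. The overlapping probe gave -0.94 ± 0.20 (SE; limma adjusted p = 0.0551). The exon-junction probe read -2.89, -3.73 and -2.92 on the DJB arrays, against -2.11, -2.08 and -2.21 on the Sham arrays. It differed by -1.05 ± 0.24 (SE; limma adjusted p = 0.0605), and it shares no run of more than 6 bases with the other 2. Its size depended on the background correction: with normexp it was -0.21 (limma adjusted p = 0.113), while the other 2 probes stayed at -0.71 or lower in each of 15 alternatives. DJB-2 was the lowest array on every Dpp4 probe, and on the symbol-named probes the SD was 0.38 to 0.47 over the DJB arrays and 0.07 to 0.14 over the Sham arrays.

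The accession-named Dpp4 probe read 0.40, -0.29 and 0.23 on the DJB arrays, against 1.74, 1.48 and 1.58 on the Sham arrays. All DJB arrays were again below all Sham arrays, by a gap of 1.09. Its difference of -1.49 ± 0.20 (SE; limma adjusted p = 0.0275 over all probes) passed the threshold. The call did not hold in every fit: leaving out DJB-2 gave an adjusted p of 0.0647, leaving out Sham-1 0.116, leaving out Sham-2 0.0863, and the slide as a block 0.0561. The gene-level call of Dpp4 was likewise lost without DJB-1 (adjusted p = 0.0749), DJB-2 (0.0717), Sham-1 (0.153), Sham-2 (0.108) or Sham-3 (0.0965) and with the slide as a block (0.0778). Within slides the direction was the same on all 4 probes. The symbol-named probes gave -1.17, -1.14 and -1.15 on slide 1 and -0.52, -0.53 and -0.84 on slide 2, and the accession-named probe gave -1.60 on slide 1 and -1.26 on slide 2.

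**Figure D2:**
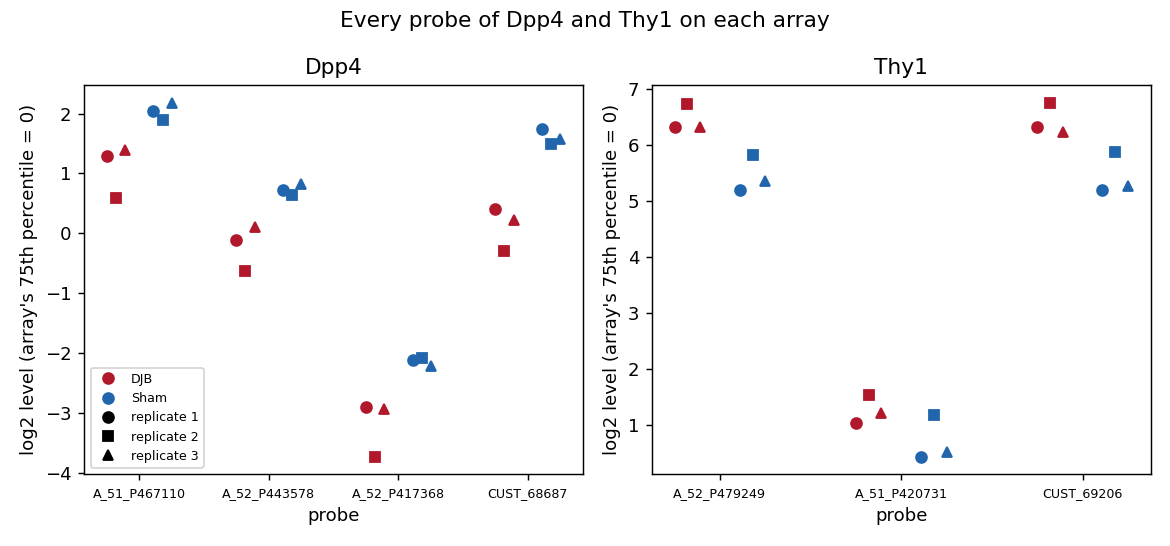
Level of every Dpp4 and Thy1 probe on each array, symbol-named and accession-named (labels starting with CUST), as log2 intensity relative to the 75th percentile of the array, with DJB left of Sham at each probe. All 4 Dpp4 probes have their DJB arrays below their Sham arrays, and 2 of the 3 Thy1 probes have their DJB arrays above.

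Markers of several other cell types differed in the same direction as Dpp4. The 8 mesothelial markers, genes of the lining of the abdominal cavity, had a median difference of -1.54 and negative differences in 8 of 8. At the gene level 3 of them passed as lower, against 9.1% of all genes. Their summed level was 5.16 to 6.45 on the DJB arrays and 7.25 to 7.46 on the Sham arrays. Krt19, a keratin of the mesothelium and of epithelia, fell by 2.51 ± 0.36 (SE; limma adjusted p over genes = 0.0162). The uroplakin Upk1b fell by 1.81 and the Wnt potentiator Rspo1 fell by 1.77, with adjusted p-values over genes of 0.0432 and 0.0219. The count of 3 was 1 without DJB-1 or DJB-2, 7 without DJB-3, 0 without Sham-1 or Sham-2 and 2 without Sham-3. The 4 tested epithelial markers had a median of -2.78 with none passing, and the summed level was 1.94 to 4.17 on the DJB arrays and 3.62 to 6.97 on the Sham arrays. Epcam, the epithelial adhesion molecule, read -2.98, -2.67 and -1.59 on the DJB arrays, against 2.98, 2.12 and -3.16 on the Sham arrays, so it was high on Sham-1 and Sham-2 alone. Without Sham-3, 4 of 4 epithelial markers passed as lower. The 8 T cell markers had a median of -0.69 with none passing and a summed level of 3.76 to 4.12 on the DJB arrays and 3.80 to 4.40 on the Sham arrays. The part of these cells in the Dpp4 difference was not tested.

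Pi16, a secreted and membrane-anchored protein of interstitial fibroblasts that is used beside Dpp4 to mark the same progenitors, did not follow it. It read 3.1, 2.12 and 2.42 on the DJB arrays, against 1.97, 2.12 and 3.01 on the Sham arrays. DJB-1 and Sham-3 were the high arrays, and the difference of 0.18 ± 0.36 (SE; limma adjusted p = 0.777) had a 95% interval of -0.70 to 1.05. The accession-named Pi16 probe gave 0.05 ± 0.32 (SE; limma adjusted p = 0.935).

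Cd55 encodes decay-accelerating factor, which protects cells from their own complement. Its symbol-named probe read 2.89, 2.96 and 2.72 on the DJB arrays, against 3.15, 3.34 and 3.75 on the Sham arrays. The groups did not overlap and the difference was -0.56 ± 0.18 (SE; limma adjusted p = 0.112), -0.53 on slide 1 and -0.62 on slide 2. The accession-named Cd55 probe overlapped between the groups, at -0.29 ± 0.20 (SE; limma adjusted p = 0.379). The mouse has a second copy of the gene, Cd55b, and the symbol-named probe shares a run of 26 bases with a Cd55b probe, shown in capitals below. What Cd55b contributes to the Cd55 signal was not tested.
A_51_P388412, Cd55 (bases 3 to 32): caCAGGTGGTGACCGTTATATATATGGAca
A_51_P343377, Cd55b (bases 1 to 30): ctCAGGTGGTGACCGTTATATATATGGAtt

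That Cd55b probe differed by -0.63 ± 0.19 (SE; limma adjusted p = 0.104). It averaged -3.11 on the DJB arrays and -2.49 on the Sham arrays, beside 2.86 and 3.41 for the Cd55 probe and 1.65 and 2.01 for the brightest Cd55b probe. A second Cd55b probe, well above background on 4 of the 6 arrays, shares 24 bases with the Cd55 probe and differed by -1.69 ± 0.56 (SE; limma adjusted p = 0.12), and the brightest Cd55b probe differed by -0.37 ± 0.19 (0.268). Of the 5 surface regulators of complement on the list, with a median of -0.37, 0 passed as higher at the gene level. 1 passed as lower, against 9.1% of all genes. Cd59a, which blocks the final membrane attack complex, fell by 1.59 ± 0.30 (SE; limma adjusted p over genes = 0.0274), with levels of 3.21, 3.33 and 4.21 on the DJB arrays, against 5.28, 4.85 and 5.38 on the Sham arrays. Its adjusted p ranged from 0.00852 to 0.105 over the alternatives. The call was lost without any 1 of DJB-1, DJB-2, Sham-1, Sham-2 or Sham-3 and with the replicate number as a block. The membrane cofactor Cd46 differed by -0.54 ± 0.14 (SE; limma adjusted p over genes = 0.0602) and Cr1l by 0.38.

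Ly6a encodes stem cell antigen 1, an antigen on many mouse stromal and haematopoietic cells. It read 6.62, 6.78 and 6.94 on the DJB arrays, against 6.13, 6.39 and 6.35 on the Sham arrays. The groups were separated by 0.23 log2 units, and the difference was 0.49 ± 0.14 (SE; limma adjusted p = 0.0851), 0.46 on slide 1 and 0.55 on slide 2. The accession-named Ly6a probe was also wholly higher on the DJB arrays, at 0.37 ± 0.13 (SE; limma adjusted p = 0.127), but its difference was 0.14 with quantile normalization (adjusted p = 0.45) and 0.090 with the authors' deposited values (0.623). The Ly6 genes of mouse chromosome 15 are close copies of each other: the symbol-named Ly6a probe, on the minus strand at mm9 chr15:74825553-74825612, shares 27 bases with a Ly6i probe, in capitals below.
A_51_P265495, Ly6a (bases 1 to 30): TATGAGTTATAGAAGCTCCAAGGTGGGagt
Ly6i probe (bases 29 to 58): tTATGAGTTATAGAAGCTCCAAGGTGGGgg

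That Ly6i probe differed by 0.36 ± 0.15 (SE; limma adjusted p = 0.171) and the 2 probes of Ly6f by 0.32 and 0.53. The accession-named Ly6a probe has such overlaps too. It shares 27 bases with the brighter Ly6f probe and 20 each with a Ly6c1 probe and a Ly6g probe. That Ly6g probe differed by 0.18, with overlapping groups. The 2 probes of Ly6c2 differed by 0.32 and 0.25. Ly6e went the other way, at -0.30 on its brighter probe and -0.52 on its dimmer one, whose DJB arrays all lay below the Sham arrays (limma adjusted p = 0.0522). None of these passed. What each copy contributes to the Ly6a signal was not tested. Among genes of the fibro-inflammatory progenitors, a Ly6c-positive stromal class, Ly6c1 differed by 0.13.

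Cd34 encodes a sialomucin of haematopoietic, endothelial and stromal progenitors. It read 7.02, 6.68 and 6.92 on the DJB arrays, against 6.80, 7.01 and 7.33 on the Sham arrays. The groups overlapped, with a difference of -0.17 ± 0.17 (SE; limma adjusted p = 0.561) and a 95% interval of -0.59 to 0.25. The accession-named probe, which shares 55 bases with it, gave -0.26 ± 0.24. Endothelial markers, whose cells also carry Cd34, had a median of -0.44. At the gene level 2 of 12 passed as lower, against 9.1% of all genes, and none as higher. The VEGF receptor Kdr fell by 0.83 ± 0.10 (SE; limma adjusted p over genes = 0.0121) and VE-cadherin, Cdh5, fell by 0.75 ± 0.16 (0.0345). The count of 2 was 0 without DJB-2 or Sham-1, 1 without DJB-1, Sham-2 or Sham-3 and 5 without DJB-3. The summed endothelial level was 7.87 to 8.54 on the DJB arrays and 8.69 to 8.89 on the Sham arrays.

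Thy1 encodes a small glycoprotein anchored in the membrane of fibroblasts, T cells and neurons. Its brighter symbol-named probe, on the plus strand at mm9 chr9:43856600-43856659, read 6.32, 6.74 and 6.32 on DJB-1, DJB-2 and DJB-3, against 5.20, 5.82 and 5.35 on the Sham arrays. The lowest DJB array stood 0.50 log2 units above the highest Sham array. The difference was 1.0 ± 0.21 (SE), a level in DJB of 2.01 times that in Sham, with a limma adjusted p of 0.051 over all probes and of 0.0341 over genes. The dimmer probe, at chr9:43854991-43855436, covers 446 genomic bases and crosses an exon junction. It read 1.03, 1.53 and 1.20 on the DJB arrays, against 0.43, 1.18 and 0.51 on the Sham arrays, which overlap at Sham-2, and gave 0.55 ± 0.24 (SE; limma adjusted p = 0.2). The accession-named probe gave 0.99 ± 0.23 (SE; limma adjusted p = 0.0639), but it shares 51 bases with the brighter probe so the 2 are not independent. The whole exon-junction probe and 30 of the shared bases, in capitals, are shown for that contrast.
A_51_P420731: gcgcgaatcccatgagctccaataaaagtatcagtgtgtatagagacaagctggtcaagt
A_52_P479249 (bases 1 to 30) and the accession-named Thy1 probe (bases 10 to 39): CACTGCTACAGCATCTCACCGAGGAAAGAA

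The Thy1 difference was larger on slide 1 than on slide 2, but a slide effect cannot be told apart here from variation between single arrays. On slide 1 the brighter probe differed by 1.25, the dimmer by 0.81 and the accession-named by 1.30, and on slide 2, with 1 array a group, the same probes differed by 0.50, 0.02 and 0.36. The gene-level call was lost without DJB-1 (adjusted p = 0.063), DJB-2 (0.0933), DJB-3 (0.0546), Sham-1 (0.12) or Sham-3 (0.0682) and with the slide as a block (0.057), while the difference stayed between 0.86 and 1.19 over the 15 alternatives at the probe level. Among markers of other cells that carry Thy1, those of T cells had 7 of 8 negative differences. Those of Schwann cells and neurons had a median of -0.03, and their summed level was 2.68 to 2.93 on the DJB arrays and 2.76 to 2.98 on the Sham arrays. 1 of them passed as higher and 1 as lower, against 2.95% and 9.1% of all genes. The adhesion molecule Ncam1 rose by 0.75 on its brightest probe, although its 7 probes spanned -1.03 to 0.75. The part of these cells in the Thy1 difference was not tested.

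Icam1 encodes the adhesion molecule to which leukocyte integrins bind. Its probe, on mm9 chr9:20832290-20832349, read 0.63, 0.74 and 0.97 on the DJB arrays, against 0.10, 0.30 and 0.31 on the Sham arrays. All DJB arrays were higher, by a gap of 0.31, and the difference was 0.54 ± 0.14 (SE; limma adjusted p = 0.0716), 0.48 on slide 1 and 0.68 on slide 2. The accession-named Icam1 probe shares no run of more than 5 bases with it, was also wholly higher, and differed by 0.43 ± 0.15 (SE; limma adjusted p = 0.137). The 8 macrophage and leukocyte markers differed in the same direction in 8 of 8, with a median of 0.49. At the gene level 2 of them passed as higher, against 2.95% of all genes. These were the macrophage lysosomal protein Cd68 at 0.69 and lysozyme, Lyz2, at 0.52 (limma adjusted p over genes = 0.0384 and 0.0382). 1 of them passed without Sham-3 and 0 without any other 1 array, and neither passed after quantile normalization. Their summed level was 11.07 to 11.26 on the DJB arrays and 10.49 to 10.90 on the Sham arrays, and their part in the Icam1 difference was not tested.

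F3 encodes tissue factor, which starts coagulation on contact with factor VII. Its brighter probe read 3.72, 4.60 and 4.63 on the DJB arrays, against 3.73, 4.21 and 4.14 on the Sham arrays. The groups overlapped because DJB-1 was the lowest of all 6 arrays. The difference was 0.30 ± 0.28 (SE; limma adjusted p = 0.529), that of the dimmer probe 0.34 ± 0.33 (0.536) and that of the accession-named probe 0.17 ± 0.30 (0.743). Both symbol-named probes lie on the plus strand, the dimmer at mm9 chr3:121437295-121437354 and the brighter at chr3:121437335-121437394, and so share 20 positions. Their deposited sequences differ at 2 of these, G9T and C15G, counted from 1 at the start of the overlap with the dimmer probe's base first, and capitals mark both positions.
A_52_P683413 (bases 41 to 60): ggacgaacGgaaacCgtaca
A_51_P236846 (bases 1 to 20): ggacgaacTgaaacGgtaca

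The 2 F3 probes still ran in parallel, with a Pearson r of 0.989 over the 6 arrays, given as a description. Between probes of 1 gene, r was 0.961 to 0.995 for Dpp4 and 0.927 to 0.996 for Thy1, but 0.228 to 0.779 for Pdgfra.

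The files also hold 1 further probe for each of the 10 genes that is named by its RefSeq accession, and these probes were read as a second set. 1 of these 10 passed the adjusted threshold, that of Dpp4, against 5% of all tested probes. 4 had all DJB arrays on one side, against 36.1% of all tested probes. These were those of Dpp4 on the lower side and of Ly6a, Thy1 and Icam1 on the higher. Over both sets, 11 of 25 probes were wholly on one side, 5 lower and 6 higher, against 36.1% of all tested probes. The 25 are not independent readings: 4 of the 11 are of Dpp4, and probe pairs of Cd34, Thy1 and Pdgfrb share 55, 51 and 49 bases. Every probe of Dpp4 (4 of 4), Ly6a (2 of 2) and Icam1 (2 of 2) was separated in 1 direction, as were 2 of 3 for Thy1 and 1 of 2 for Cd55. None of the probes of Pdgfra, Pdgfrb, Pi16, Cd34 and F3 in these 2 sets was. Probes named by a genomic interval also lie inside Pdgfrb and Cd34. The 3 in Pdgfrb differed by 0.42, 0.34 and 0.23, the first 2 with all DJB arrays above all Sham arrays, and the 1 tested in Cd34 differed by -0.22. None of them passed.

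**Figure D3:**
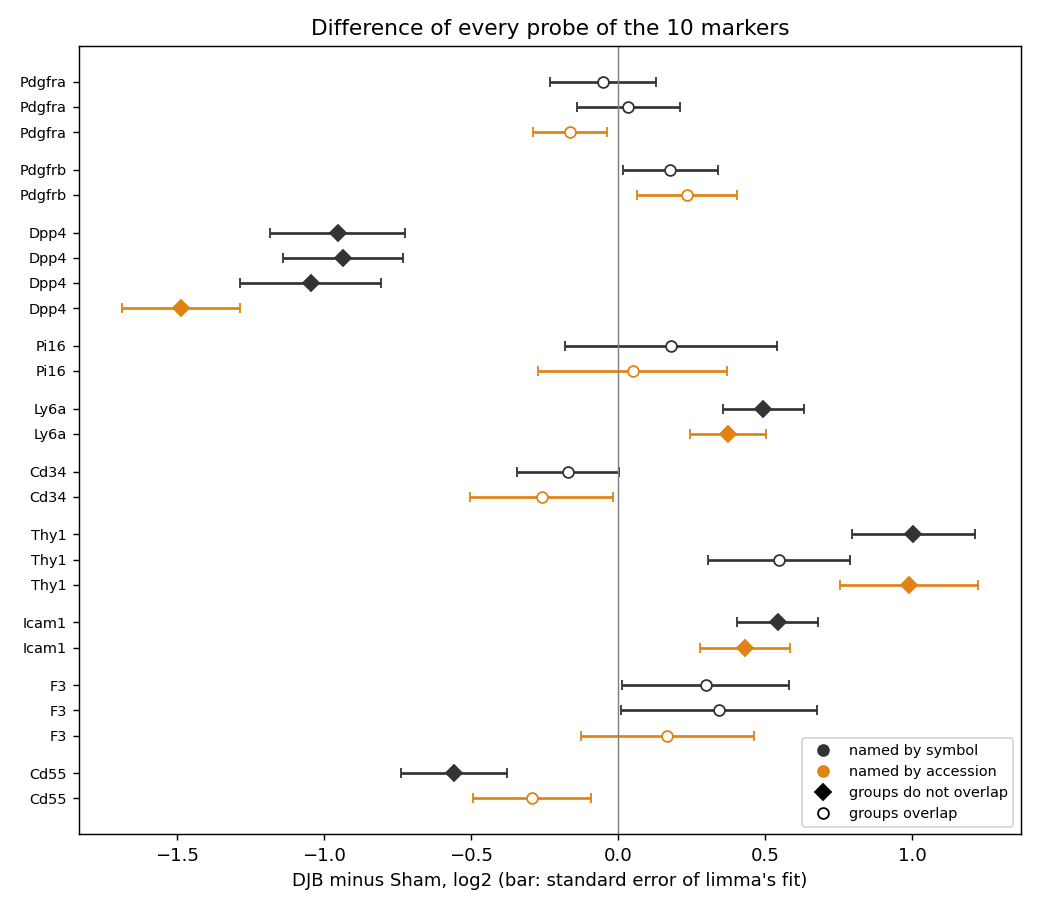
Difference, DJB minus Sham in log2 units, of all 25 probes of the 10 genes, with the standard error of limma's fit as bars. Diamonds mark the 11 probes whose groups did not overlap, and colour separates probes named by symbol from those named by accession. The 4 Dpp4 probes lie between -1.49 and -0.94 and the 3 Thy1 probes between 0.55 and 1.0.

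**Figure D4:**
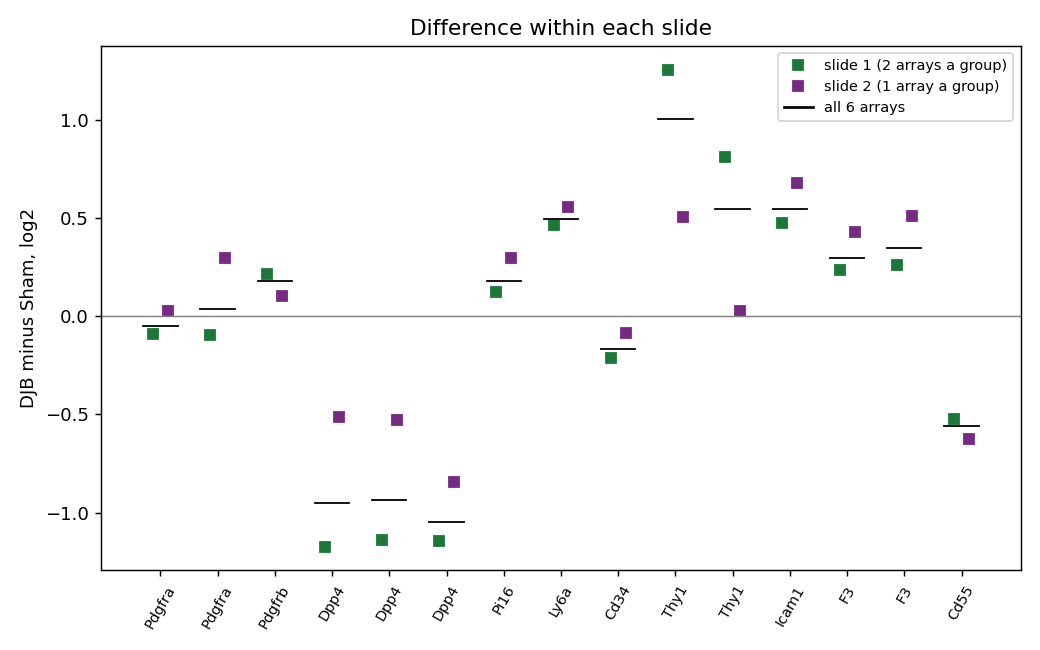
Difference, DJB minus Sham in log2 units, of the 15 symbol-named probes within slide 1 (2 arrays a group) and slide 2 (1 array a group), with a bar at the value over all 6 arrays. Dpp4 and Thy1 have their larger differences on slide 1, and Ly6a, Icam1 and Cd55 have similar ones on both slides.

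Across the 6 arrays the levels of Ly6a and Icam1 ran together (Pearson r = 0.993), as did those of Pdgfra and Cd34 (0.934), and Dpp4 ran opposite to Thy1 (-0.947). These values describe 6 arrays that share the 2 groups and the scaling, and for markers that separate the groups they largely restate that separation. Of 18432 other genes, the closest profile to Dpp4 was that of the zinc finger gene Zfp959 (r = 0.993), to Thy1 that of Abr (0.997), to both Ly6a and Icam1 that of Atf6b (0.995 and 0.998) and to Cd55 that of the phospholipase Pla2g2e (0.9996). The closest to Pdgfra was Olfr1034 (0.982), to Pdgfrb Ifitm5 (0.997), to Pi16 Kif13b (0.994), to Cd34 Tox2 (0.992) and to F3 the retinoic acid receptor Rara (0.995). Of these, Abr passed at the gene level, at 0.62 ± 0.13 (SE; limma adjusted p over genes = 0.0379). With 6 arrays such values are common: 294 genes correlated above 0.95 with Thy1 and 115 with Dpp4.

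The genes that accompany these markers in progenitor classes were then read at the gene level. Among 12 genes of the DPP4+ interstitial progenitors, 5 passed as lower and 0 as higher, against 9.1% of all genes lower, and the median was -0.47. Sema3c, a secreted guidance cue, read 2.27, 1.97 and 2.40 on the DJB arrays, against 4.13, 4.07 and 4.22 on the Sham arrays, and fell by 1.92 ± 0.14 (SE; limma adjusted p over genes = 0.00381). Limch1, a regulator of actomyosin, read 1.54, 1.33 and 1.82 on the DJB arrays, against 3.08, 2.97 and 3.03 on the Sham arrays, and fell by 1.47 ± 0.15 (0.00762). Neither gene overlapped between the groups, and both kept their call when any 1 array was left out. The growth factor Bmp7 fell by 2.13 (adjusted p = 0.0443), the Wnt modulator Dact2 fell by 1.22 (0.0261) and the collagen-processing enhancer Pcolce2 fell by 1.08 (0.0296). The list was not uniform: Fbn1, which encodes fibrillin, differed by 0.59 and Anxa3 by 0.55 without passing, and the summed level was 8.92 to 9.38 on the DJB arrays and 8.45 to 9.05 on the Sham arrays. The count of 5 was 3 without DJB-1 and 2 without DJB-2, DJB-3, Sham-1 or Sham-2. The part of other cell types in these differences was not tested.

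Among 13 genes of the ICAM1+ committed preadipocytes, 2 passed as lower, against 9.1% of all genes, and 0 as higher. The median was -0.15. Pparg, the nuclear receptor that drives adipocyte differentiation, read 5.74, 5.70 and 5.85 on the DJB arrays, against 6.51, 6.33 and 6.60 on the Sham arrays, and fell by 0.72 ± 0.12 (SE; limma adjusted p over genes = 0.0222). Zfp423, a zinc finger factor of preadipocyte commitment, fell by 1.22 ± 0.24 (0.0311). Dlk1, the preadipocyte factor, differed by -1.54 without passing (0.106). Both calls were lost without DJB-2, Sham-1 or Sham-2, where 0 genes of the list passed. The list was mixed, with 5 of 13 differences positive. The chemokine Cxcl14 differed by 0.72 (0.0904) and the fatty acid transporter Cd36 by 0.42 (0.0587), neither passing, and the summed level was 11.19 to 11.36 on the DJB arrays and 11.24 to 11.33 on the Sham arrays. The part of mature adipocytes and other cell types in these differences was not tested. The mature adipocyte markers, which include targets of Pparg, had a median of -1.19, with a summed level of 9.39 to 10.55 on the DJB arrays and 10.95 to 11.30 on the Sham arrays. Leptin, Lep, fell by 2.96 ± 0.55 (SE; limma adjusted p over genes = 0.0272) and resistin, Retn, fell by 1.20 ± 0.19 (0.0205). Of these adipocyte markers 2 passed as lower, against 9.1% of all genes. The count was 0 without DJB-2 or Sham-1, 1 without Sham-2 and 3 without DJB-1 or DJB-3.

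Among 8 genes of the F3+ stromal cells 0 passed in limma. Gdf10, a secreted factor of the TGF-beta family, differed by -1.50 (limma adjusted p over genes = 0.0571), the monooxygenase Fmo2 by -0.95 and the binding protein Igfbp3 by -0.87. The list was evenly split, with 4 of 8 differences positive, up to 0.40 for the sterol transporter Abcg1, and a summed level of 9.44 to 9.72 on the DJB arrays and 9.29 to 9.33 on the Sham arrays. Among 7 fibro-inflammatory genes 1 passed as higher, against 2.95% of all genes, and 0 as lower. This was the monocyte chemokine Ccl2, at 0.68 ± 0.14 (SE; limma adjusted p over genes = 0.0318). Ccl2 kept its call without DJB-3 and lost it without any other 1 array. Il6 differed by 1.49 and Cxcl10 by -0.84, and neither passed. Of 13 fibroblast matrix genes 0 passed in limma and 11 had a positive difference, with a median of 0.23. The microfibril gene Mfap5 differed by 0.93 (adjusted p over genes = 0.116), and the collagens Col1a1 and Col3a1 by 0.64 and 0.51. The summed matrix level was 11.88 to 11.90 on the DJB arrays and 11.49 to 11.77 on the Sham arrays. The median was 0.089 with quantile normalization, 0.079 with the authors' deposited values and 0.062 without Sham-1.

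Proteins that bind the markers or are cut by them formed a list of 14 genes, with a median of 0.38. Of these, 3 passed as higher and 1 as lower, against 2.95% and 9.1% of all genes. The integrin chains Itgam and Itgb2, which together form a receptor for Icam1 on myeloid cells, rose by 1.23 ± 0.18 and 1.05 ± 0.17 (SE; limma adjusted p over genes = 0.0167 and 0.0202). Itgam read 6.62, 6.42 and 6.30 on the DJB arrays, against 4.87, 5.36 and 5.40 on the Sham arrays. Neuropeptide Y, Npy, which DPP4 cleaves, read 6.00, 4.94 and 5.04 on the DJB arrays, against 3.22, 3.45 and 3.05 on the Sham arrays, and rose by 2.09 ± 0.30 (0.0164). The chemokine Cxcl12, another DPP4 substrate, fell by 0.50 ± 0.12 (0.0465), but its 3 probes spanned -0.52 to 0.06. Its call was lost with median scaling, with no filter on dim probes and with the slide or the replicate number as a block. It was also lost with the mean of its probes and without any 1 array. Without Sham-1, 0 genes of this list passed, and without DJB-2 1 passed as higher.

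Mural and smooth muscle markers, the other cells that carry Pdgfrb, moved while Pdgfrb did not pass. Of 11, 7 passed as lower, against 9.1% of all genes, and 0 as higher. All 11 differences were negative and the median was -1.15. Acta2, smooth muscle actin, read 4.70, 5.03 and 4.88 on the DJB arrays, against 7.44, 7.15 and 7.21 on the Sham arrays, and fell by 2.40 ± 0.14 (SE; limma adjusted p over genes = 0.00381), though its 4 probes spanned -3.22 to 0.07. The pericyte gene Rgs5 fell by 1.82 ± 0.19 (0.00814). Of the contractile genes, Cnn1 fell by 2.61 and Myh11 fell by 2.10. The adhesion molecule Mcam fell by 1.46, and of the channel subunits Kcnj8 fell by 1.15 and Abcc9 fell by 0.91. The summed mural level was 7.21 to 7.65 on the DJB arrays and 8.69 to 9.23 on the Sham arrays. The count of 7 was 4 without DJB-1, 2 without DJB-2, 4 without Sham-1 and 3 without Sham-2.

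Over all 16 lists, 142 distinct genes were tested, each well above background on all 6 arrays (Cldn4, an epithelial claudin, was too dim). Of these, 32 passed at the gene level (22.5%), 7 as higher and 25 as lower, beside 12.1% of all genes. The lists were chosen with earlier results of these data known. The 12.1% also covers genes well above background on as few as 3 arrays. The shares are therefore not alike, and their difference tests nothing. Leaving out DJB-1 kept 16 of the 32, DJB-2 6 and DJB-3 25; leaving out Sham-1 kept 6, Sham-2 10 and Sham-3 22; the slide as a block kept 22. All 32 kept their sign in each of these fits.

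**Figure D5:**
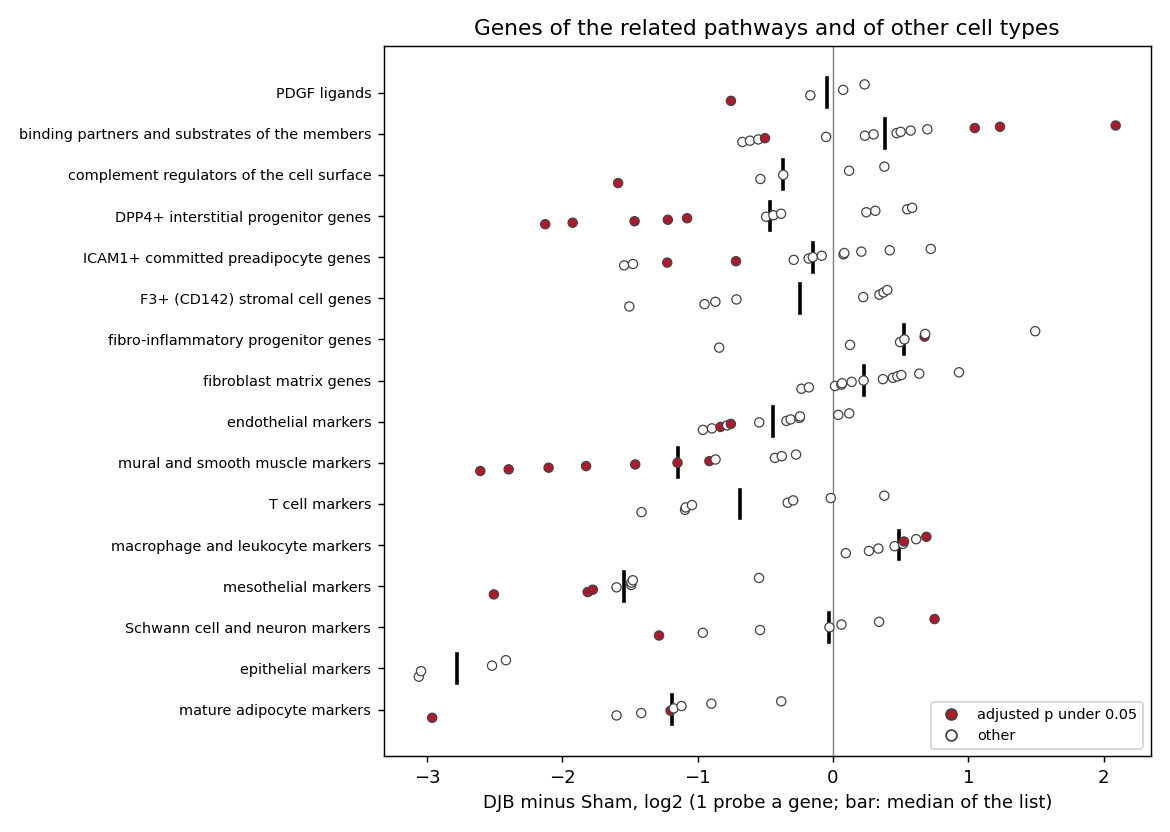
Difference, DJB minus Sham in log2 units, of each gene of the 16 lists, with 1 probe per gene. Filled points passed an adjusted p of 0.05 over all genes, and black bars mark the median of each list. In the DPP4+ interstitial progenitor list 5 of 12 genes pass and in the mural list 7 of 11, all lower, beside 9.1% of all genes. Fibroblast matrix genes lie mostly above 0 with none passing.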

How the data were processed

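The authors' 6 scanner files hold Feature Extraction 12.0.3.1 output, with mm9 in the genome build field, per the file headers. Their deposited processed intensity is background-subtracted and on a linear scale, and was used as log2 minus the 75th percentile of each array. The authors' deposited table of log2 values was used as an alternative. It has medians of 4.55 to 4.56 and near-identical sorted columns, each correlating at 0.999 or more with its own array; its normalization is not stated, and its scale and direction follow from that match. The submitters' processing notes name limma and give no role for it.

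Probes well above background on at least 3 of 6 arrays (99423) were tested with limma 3.58.1 in R 4.3.3, two-sided, with Benjamini-Hochberg adjustment at 0.05. Spots flagged as outliers were treated as missing. At the gene level, the brightest tested probe of each of 18446 genes was adjusted over genes. RefSeq accessions were named through a GRCm38.p6 gene table, and 48048 matched. No depth applies to arrays: their number limits the precision. The fit was tested on simulated data.

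The markers and lists were chosen with earlier results of these data known. Named are all markers, every passing gene of a list (or, under 3, the largest differences up to 3), and the gene closest in profile. The exception is 1 passing gene on a list for another cell type, whose values are not reported here. Genes named beyond that (Fbn1, Anxa3, Dlk1, Cxcl14, Cd36, Abcg1 and the Ly6 copies) were chosen after their values were seen. Interval-named probes were placed by GRCm38 coordinates: 98.2% lay inside a gene, against 43.4% and 42.1% after shifts of 500000 bases either way. The design text of the series describes another experiment and was not used. Alternatives were other scalings, background correction, filters, prior, blocks and leaving out each array.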

Additional observations from a re-analysis of the deposited data

How the results depend on the processing

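Median scaling moved the median difference of all tested probes to 0.19, beside 0.08 with the 75th percentile, and of all genes to 0.11, beside 0.004. It shifts every probe alike, so a probe's distance from the median of all probes is the same under both scalings by construction. This distance was -1.03 for the brightest Dpp4 probe and 0.92 for the brighter Thy1 probe. Of 4967 called probes 63.2% were lower, of 3931 with median scaling 51.5% and of 11913 with normexp 41.1%; of 2223 called genes 75.5% were lower, and 64.2% of 1876 with median scaling. The count of probes was 11913 with normexp background correction, 649 with no filter on dim probes, 7547 with probes well above background on all 6 arrays, 10620 with a trended robust prior, 707 with the slide as a block and 119 to 3971 when each array was left out. Marker probes called were 4 with normexp, 1 with median scaling, 4 with the 6-array filter, 6 with the trended prior and 0 in the other fits. Marker genes called, 2 in the report, were 3 with normexp (Dpp4, Thy1 and Cd55), 1 with median scaling, 0 with no filter, 4 with the trended prior, 0 with the slide as a block, 1 with the mean of a gene's probes, and 0 to 1 when each array was left out (Dpp4 without DJB-3, Thy1 without Sham-2). Genes called were 3896 with normexp, 1274 with no filter, 3899 with the trended prior, 1322 with the slide as a block and 207 to 2277 when each array was left out. Pdgfra and Pi16 changed sign when single arrays were left out: the brighter Pdgfra probe gave 0.056 with median scaling, which shifts every probe alike, and -0.20 to 0.11 when each array was left out, positive without DJB-2 (0.025) and Sham-3; the dimmer gave -0.010 with normexp and -0.10 to 0.15, negative without DJB-3 and Sham-1 (-0.076). The symbol-named Pi16 probe gave -0.10 to 0.50, negative without DJB-1 and Sham-1 (-0.020), and the accession-named one gave -0.013 with normexp, -0.019 with quantile normalization, -0.024 with the authors' deposited values and -0.21 to 0.31, negative without DJB-1 and Sham-1 (-0.16). The accession-named F3 probe gave -0.090 to 0.48, negative without DJB-2. Over the fits of single marker probes, 337 kept sign and call, 14 changed sign, 18 newly passed and in 6 the accession-named Dpp4 probe no longer passed (adjusted p = 0.0589 with no filter and 0.103 with the replicate block beside those in the report). Whether the replicate numbers pair the arrays is not stated in the labels. The deviations of same-numbered arrays correlated at -0.18, -0.12 and -0.29, which with 3 arrays per group cannot exclude a pairing. With the replicate block 0 probes passed in limma (21438 at an unadjusted p under 0.05), with 0 marker probes, 0 marker genes and 155 genes. Of the 32 called list genes 3 still passed with that block, and 31 kept their sign with the mean of a gene's probes, Ncam1 being the exception at -0.39. The causes were not tested.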
